A study of Mus musculus with 8 samples.

Results

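The genes described here are 6 mouse genes of vitamin D response and calcium absorption, namely Vdr, S100g, Trpv6, Cyp24a1, Atp2b1 and Slc34a2. They were found by symbol, through their Ensembl identifiers, in the count tables of wild type crypts, and they are 6 of 45706 genes in those tables. Crypts, the tubular glands of the gut lining, house its stem and progenitor cells. They had been freshly isolated by EDTA from the small intestine (SI) and the colon (COL) of 4 C57BL/6N wild type mice, for which no treatment is named. Mice 1 and 4 were female and mice 2 and 3 were male, and the labels give the last mouse the donor number 5. Each mouse gave 1 SI library and 1 COL library, named here by tissue and mouse (SI1 to SI4, COL1 to COL4). The age of the mice and the segment of the SI are not given in the labels. The supplementary methods describe isolation from the proximal SI or the colon for organoids, and name no segment for the crypts of RNA-Seq.

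Vitamin D acts through its receptor, a nuclear receptor that pairs with a retinoid X receptor (RXR) and binds DNA at pairs of a short core motif. In the absorptive cells of the intestine the active hormone is known to raise a calcium channel on the luminal side, a calcium-binding protein in the cytosol and a calcium pump on the blood side, which together move calcium through the cell. It also raises an enzyme that degrades the hormone, and phosphate is taken up beside calcium by a sodium-dependent carrier of the brush border. This route is best known from the duodenum and is also described in the cecum and colon.

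RNA-Seq reads per gene had been counted by the authors, and a library held between 15969428 and 32908060 counts. Levels are given as CPM, counts per 1000000 counts of the kept genes after scaling by TMM, a method that corrects for library composition. In every library 1 read was worth between 0.0209 and 0.0622 CPM. The 8 summed markers of villus enterocytes, the absorptive cells of the SI, lay between 49800 and 122000 CPM in SI and between 19.0 and 154 CPM in COL. Of the 5 surface colonocyte markers, the enzyme gene Car1 lay between 1.22 and 382 CPM in SI and between 2630 and 30000 CPM in COL. Car4 and Aqp8 were also higher in COL without overlap. Slc26a3 overlapped, and Krt20 went the other way, at 4780 to 11100 CPM in SI and 241 to 1620 CPM in COL. The sums of the 5 overlapped, at 5090 to 11400 CPM in SI and 5220 to 33400 CPM in COL. Of the proximal SI markers, Gata4 lay between 48.3 and 52.9 CPM in SI and at most at 0.188 CPM in COL, Onecut2 lay between 39.7 and 127 CPM in SI and at most at 1.12 CPM in COL, and Cybrd1, an iron reductase of the duodenum, had only 2 to 4 counts in each SI library and at most 2 in COL. The bile acid carrier of the ileum, Slc10a2, lay between 0.862 and 1.51 CPM in SI and between 9.51 and 82.0 CPM in COL. The crypt base stem cell list, Lgr5, Ascl2, Smoc2 and Olfm4, summed to 12.3 CPM in SI1, where Ascl2 was at 0, and to between 188 and 290 CPM in SI2 to SI4. In COL it summed to between 27.0 and 34.6 CPM. Olfm4 made up most of the sum in SI2 to SI4, at 161 to 254 CPM, and was at most at 3.5 CPM in COL. Lgr5 went the other way without overlap, at 0.634 to 11.2 CPM in SI and 11.5 to 16.1 CPM in COL. So did Ascl2, at most at 1.57 CPM in SI and at 2.46 to 3.85 CPM in COL, while Smoc2 overlapped. The share of mitochondrially encoded genes was low, at 4.83 to 7.35%, in 4 libraries (COL3, COL4, SI1 and SI4), and high, at 22.7 to 50.8%, in the others (COL1, COL2, SI2 and SI3). In SI the libraries of low share are those of the female mice and the libraries of high share those of the male mice, so that sex and mitochondrial share cannot be told apart within SI.

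The comparison of SI with COL asks how the crypts of the 2 tissues differ before any manipulation. Slc34a2, the phosphate carrier of the brush border, was higher in SI with a fitted difference of 5.20 on the log2 scale (SE 1.12), and it was the only member called by the quasi-likelihood test of edgeR, adjusted by the Benjamini-Hochberg method (adjusted p = 0.00493). The calcium channel Trpv6 and the calcium buffer S100g were lower in SI than in COL in 4 of 4 mice, by 2.64 (SE 1.13) and 1.39 (SE 1.20) on the log2 scale, and neither passed that test. SI and COL came from the same 4 mice, and in edgeR with the mouse as a block Slc34a2 was not called (adjusted p = 0.057) while Trpv6 was (adjusted p = 0.0424). With that block in limma-voom, a second test for counts, Slc34a2 (adjusted p = 0.0152), Trpv6 (adjusted p = 0.0161) and S100g (adjusted p = 0.0373) were called. The receptor gene Vdr was well detected in all 8 libraries, and its fitted difference of 0.56 (SE 0.34) was not called in edgeR without a block. A gene was called where its adjusted p was below 0.05, and 4116 of the 14491 genes that passed the filter on low counts were called, or 28.4%, made up of 15.5% that were higher in SI and 12.9% that were lower. Of the 6 members 5 passed the filter and 1 of these was called, or 20.0%. The CPM of the 4 SI and the 4 COL libraries overlapped for each of the 5, while they did not overlap for 33.5% of all genes tested.

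**Figure D1:**
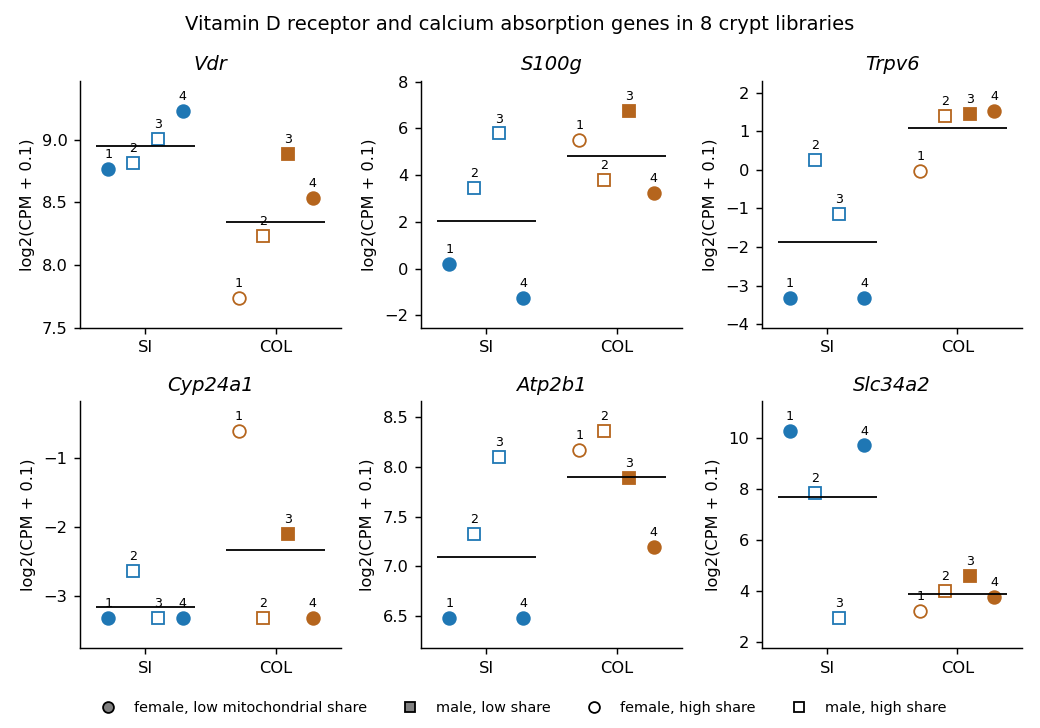
Level of each gene in each of the 8 libraries as log2(CPM + 0.1), with a separate vertical axis for each gene. Points are libraries with the number of the mouse, blue for SI and brown for COL, circles for female and squares for male mice, filled for a low and open for a high mitochondrial share, and the line is the mean of 4. SI3 lies below the 4 COL libraries for Slc34a2, while the other 3 SI libraries lie above them.

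Vdr encodes the vitamin D receptor (ENSMUSG00000022479, GRCm38 chromosome 15, 97854425 to 97910630, minus strand). Its level was 435.8, 449.1, 512.9 and 599.7 CPM in SI1 to SI4 and 213.4, 300.5, 472.2 and 370.9 CPM in COL1 to COL4. The SI libraries were the higher ones except that COL3 lay within their range, and the SI library was above the COL library of the same mouse in 4 of 4 mice. The means were 499.4 ± 74.9 CPM in SI against 339.2 ± 109.6 CPM in COL (SD, n = 4 each). The fitted log2 difference of 0.56, with a 95% interval from -0.19 to 1.31, was not called by edgeR (adjusted p = 0.253), and the exact two-sided permutation test of log2(CPM + 0.1) over all 70 assignments gave p = 0.0857, where 0.0286 is the smallest p it can give. Within mice the log2 differences were 1.03, 0.58, 0.12 and 0.69 in mice 1 to 4. Scaling by library size alone moved the median log2 difference of all genes from -0.09 to -0.82, and that of Vdr to -0.18, whereas the distance of Vdr from that median was 0.65 with TMM and 0.64 with library size alone. In bulk samples fewer cells that express a gene and less of its RNA per cell cannot be told apart, which holds for every gene described here.

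Trpv6 encodes the calcium channel of the luminal membrane (ENSMUSG00000029868, chromosome 6, 41620624 to 41636405, minus strand). It had 0, 18, 7 and 0 counts in SI1 to SI4 and 30, 41, 98 and 133 counts in COL1 to COL4. In CPM these counts are 0, 1.09, 0.355 and 0 in SI and 0.880, 2.55, 2.62 and 2.79 in COL. Its reads were few in both tissues, and a count of 0 allows up to 0.136 CPM in SI1 and 0.137 CPM in SI4 (3 counts, for counting error only). SI2 lay above COL1 and the other 3 SI libraries lay below all COL libraries. The means were 0.361 ± 0.513 CPM in SI against 2.21 ± 0.891 CPM in COL (SD, n = 4 each), and the SI library was the lower one in 4 of 4 mice. The log2 difference of -2.64 (95% interval -5.15 to -0.17) was not called by edgeR (adjusted p = 0.103, unadjusted p = 0.0382). Trpv6 passed the filter on low counts through its COL libraries, where its level was higher, and only SI2 held more than 10 counts in SI. A minimum of 10 counts in every library left Trpv6 without a value. A block on the mouse, which pairs the SI and COL libraries of an animal, gave -3.63 in edgeR, and Trpv6 was then called (adjusted p = 0.0424). Without SI2, the SI library that lay above COL1, Trpv6 was called in edgeR without a block, at -4.20 (adjusted p = 0.0228). With any other library left out it was not called (edgeR adjusted p between 0.126 and 0.182). In the libraries of low mitochondrial share the 2 SI libraries were both at 0 while the 2 COL libraries had a mean of 2.70 CPM, so that Trpv6 was at least 19.8-fold lower in these SI libraries, taken against a mean limit of 0.137 CPM. Trpv5, the closest relative of Trpv6 and the calcium channel of the kidney, had 4 counts in COL3 and 0 in the other 7 libraries.

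S100g encodes the vitamin D dependent calcium-binding protein of absorptive cells, a small calbindin (ENSMUSG00000040808, chromosome X, 162961992 to 162964599, minus strand). Its level was 1.04, 10.9, 55.0 and 0.32 CPM in SI1 to SI4, from 23, 180, 1085 and 7 counts. In COL1 to COL4 it was 45.9, 13.9, 107.2 and 9.38 CPM, from 1563, 223, 4007 and 448 counts. SI1 and SI4 were far below every COL library, whereas SI2 and SI3 lay within the COL range. The highest SI library was 172-fold above the lowest, and the highest COL library 11.4-fold above the lowest. The SI library was below the COL library in 4 of 4 mice, with log2 differences of -5.33, -0.35, -0.96 and -4.49 in mice 1 to 4. The means of 16.8 ± 25.9 CPM in SI against 44.1 ± 45.1 CPM in COL (SD, n = 4 each) gave a fitted log2 difference of -1.39 with a 95% interval from -4.03 to 1.25, which edgeR did not call (adjusted p = 0.423). The donor block gave -2.66 in edgeR (adjusted p = 0.0582, not called) and -2.28 in limma-voom (adjusted p = 0.0373, called). In the 4 libraries of low mitochondrial share the fitted difference was -6.41 (edgeR adjusted p = 0.0232), and in the 4 of high share it was 0.07 (adjusted p = 0.972). The subset of low share holds both libraries of mouse 4 but sets SI1 beside COL3. The subset of high share holds both libraries of mouse 2 but sets SI3 beside COL1. Within mice 2 and 3, whose SI libraries are of high share, S100g was lower in SI by the values above. The part of the mitochondrial share, or of sex, in these values was not tested. Without SI3 the difference was -3.44 and without COL3 it was -0.45. Of the 3 calbindin genes S100g, Calb1 and Calb2, S100g made up at least 98.4% of the summed CPM per kilobase of exon in every library.

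The promoters of S100g and Trpv6 are shown because these genes of the absorption route had lower levels in SI than in COL in every mouse. The sequences are the 250 bases before the RefSeq start of each gene (GRCm38.p6), read on the strand of the gene, at chrX:162964600-162964849 and at chr6:41636406-41636655, both on the minus strand and outside the exons of the gene annotation. Capitals mark the core motif of nuclear receptors, searched on both strands as AGGTCA, as AGTTCA, as GGGTCA and as GGTTCA, and none of them overlaps another.
S100g: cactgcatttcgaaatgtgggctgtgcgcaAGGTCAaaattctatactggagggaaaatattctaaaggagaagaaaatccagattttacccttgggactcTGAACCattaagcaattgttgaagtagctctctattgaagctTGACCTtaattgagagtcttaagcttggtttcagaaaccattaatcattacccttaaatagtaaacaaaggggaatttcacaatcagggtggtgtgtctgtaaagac
Trpv6: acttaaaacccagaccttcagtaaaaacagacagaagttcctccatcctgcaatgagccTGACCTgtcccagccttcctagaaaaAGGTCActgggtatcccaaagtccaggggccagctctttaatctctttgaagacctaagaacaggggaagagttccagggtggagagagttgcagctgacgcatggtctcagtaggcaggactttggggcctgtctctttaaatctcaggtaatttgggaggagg
S100g held 3 core motifs in this window, Trpv6 held 2 and Vdr held 1, while the windows of Atp2b1 and Slc34a2 held none. The windows of Vdr and Slc34a2 and 1 window of Atp2b1 overlap annotated exons of their own gene. In this they differ from those of S100g and Trpv6. Of 32851 RefSeq promoters of this length 38.6% held at least 1, and the share that held 2 or 3 was not counted. The core motifs of S100g began 220, 149 and 107 bases before the start, and those of Trpv6 began 191 and 165 bases before it. A pair of core motifs as a direct repeat spaced by NNN, the arrangement that the receptor and its RXR partner are known to bind, was found in none of the 6 promoter windows of the 5 members with an entry, and in 0.0396% of all promoters. The letters TTTATA or TTTATG, bound by CDX factors of the intestine, were found in none of the 6 windows either and in 20.9% of all promoters. These matches describe the letters of the windows and were not tested for binding. The GC content was 38.4% for S100g and 49.6% for Trpv6, against a median of 52.4%, and the CpG counts were 2 and 1 against a median of 6.

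Atp2b1 encodes the plasma membrane pump that expels calcium on the blood side (ENSMUSG00000019943, chromosome 10, 98914406 to 99026143, plus strand). Its level was 89.3, 159.9, 274.5 and 89.1 CPM in SI1 to SI4 and 286.8, 327.4, 236.4 and 146.4 CPM in COL1 to COL4. SI1 and SI4 were the lowest libraries, as they were for S100g, SI2 and SI3 lay inside the COL range, and SI3 was above the COL library of its own mouse. The means were 153.2 ± 87.5 CPM in SI against 249.2 ± 78.0 CPM in COL (SD, n = 4 each), and the SI library was lower in 3 of 4 mice. The log2 difference of -0.70 (SE 0.42, 95% interval -1.63 to 0.23) was not called by edgeR (adjusted p = 0.248). Scaled by library size alone it was -1.40 and called (adjusted p = 0.0267), although its distance from the median of all genes was -0.61 with TMM and -0.58 with library size alone. Of the 4 plasma membrane calcium pump genes, Atp2b1 made up at least 97.9% of the CPM per kilobase in SI and at least 99.0% in COL.

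Cyp24a1 encodes the mitochondrial enzyme that degrades vitamin D hormone, and it is a classical target of the receptor (ENSMUSG00000038567, chromosome 2, 170482708 to 170497145, minus strand). It had 0, 1, 0 and 0 counts in SI1 to SI4 and 19, 0, 5 and 0 counts in COL1 to COL4, and did not pass the filter. Reads were thus all but absent from SI, and COL1 held 79.2% of the COL counts. The ratio of COL to SI, relative to the effective library sizes, was 14.2 with an exact 95% interval from 2.32 to 585 that covers counting error only. Over the libraries the log2 difference of -0.815 gave p = 0.429 in the exact permutation test, and 3 SI and 2 COL libraries were at 0. Part of Cyp24a1 overlaps exons of Pfdn4 on the opposite strand, and the use of strand in counting is not given in the sources used here, so that reads of the 2 genes cannot be told apart there.

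Slc34a2 encodes the sodium-dependent phosphate carrier of the intestinal brush border (ENSMUSG00000029188, chromosome 5, 53038081 to 53071664, plus strand). Its level was 1241, 230.3, 7.60 and 844.8 CPM in SI1 to SI4, from 27407, 3811, 150 and 18451 counts. In COL1 to COL4 it was 9.21, 16.0, 24.5 and 13.7 CPM, from 314, 257, 916 and 652 counts. The SI libraries of mice 1, 2 and 4 lay above every COL library, and SI3 lay below every COL library. The means were 581 ± 565 CPM in SI against 15.8 ± 6.42 CPM in COL (SD, n = 4 each), with a 163-fold range within SI and a 2.66-fold range within COL. The fitted fold difference was 36.7, or 5.20 on the log2 scale with a 95% interval from 2.74 to 7.65 (edgeR adjusted p = 0.00493). Within mice the log2 differences were 7.06, 3.84, -1.67 and 5.94 in mice 1 to 4. Blocked on the mouse, the difference was 4.47 and was no longer called by edgeR (adjusted p = 0.057), whereas limma-voom with that block gave 3.91 and called it (adjusted p = 0.0152). In the libraries of high mitochondrial share alone the edgeR difference was 3.16 and not called (adjusted p = 0.121). The exact permutation test over the 8 libraries gave p = 0.143.

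Slc34a2 and S100g stood in nearly opposite order within SI. From the highest to the lowest Slc34a2 the SI libraries ran SI1, SI4, SI2 and SI3, and from the highest to the lowest S100g they ran SI3, SI2, SI1 and SI4. The villus enterocyte markers summed to 122000, 51900, 49800 and 85300 CPM in SI1 to SI4, with SI1 and SI4 the highest as for Slc34a2. SI1 and SI4 were also the highest for Apoa4, Apoa1, Lct, Anpep and Ada, but not for Alpi, Fabp1 and Sis. Sis was highest in SI3, at 3370 CPM, and Alpi was at 878, 178, 843 and 345 CPM in SI1 to SI4. The part of the villus markers in the levels of either gene was not tested. Over all 8 libraries the Pearson correlation of log2 CPM was -0.85 between S100g and Slc34a2 and 0.87 between S100g and Atp2b1, given as a description, since the points share 4 mice and 2 tissues.

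**Figure D2:**
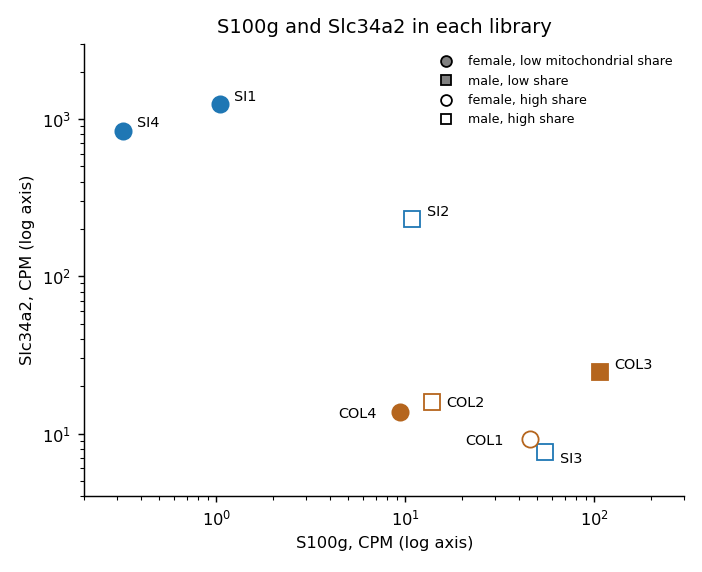
S100g against Slc34a2 in the 8 libraries, in CPM on log axes, with blue points for SI and brown points for COL. SI1 and SI4 sit at the top left, with 1.04 and 0.32 CPM of S100g, and SI3 sits at the bottom right beside COL1, with 55.0 CPM of S100g and 7.60 CPM of Slc34a2.

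Levels of different genes were compared per kilobase of exon. In SI the means ran from Slc34a2 at 116 ± 113 CPM per kilobase through Vdr at 88.4 ± 13.3, S100g at 35.0 ± 54.0 and Atp2b1 at 10.1 ± 5.75 to Trpv6 at 0.0916 ± 0.130 and Cyp24a1 at 0.00424 ± 0.00849 (SD, n = 4). Of these neighbours only Atp2b1 and Trpv6 did not overlap in their SI libraries. In COL the order was S100g at 91.8 ± 94.0, Vdr at 60.0 ± 19.4, Atp2b1 at 16.4 ± 5.13, Slc34a2 at 3.16 ± 1.28, Trpv6 at 0.561 ± 0.226 and Cyp24a1 at 0.0485 ± 0.0742 CPM per kilobase (SD, n = 4). There only S100g and Vdr overlapped, and each of the other neighbours stood apart. The channel gene was thus the lowest step of the calcium route in both tissues, below the buffer and the pump in every library.

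Around the members, 46 further genes of vitamin D action, calcium handling and phosphate transport were looked up as 6 lists. Of these 35 passed the filter and 13 were called by edgeR, 7 higher in SI and 6 higher in COL, or 37.1% against the 28.4% of all genes. The median log2 difference of the 35 was 0.22, against -0.09 for all genes tested. Blocking on the donor mouse left these 13 called and added the corepressor gene Ncor1.

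Among 9 tested partners and cofactors of the receptor, 1 was called. Rxra, a partner with which the receptor binds DNA, was at 115.3 ± 13.97 CPM in SI against 50.8 ± 6.17 CPM in COL (SD, n = 4 each), and the 2 tissues did not overlap. Its log2 difference was 1.18 (SE 0.24, edgeR adjusted p = 0.00343). Rxra made up 85.1 to 91.2% of the CPM per kilobase of the 3 RXR genes in SI and 61.5 to 74.9% in COL. Rxrb, whose values were 10.5 ± 2.30 CPM in SI against 18.79 ± 5.30 CPM in COL, was not called (adjusted p = 0.0565), though it was under some other settings such as DESeq2, nor was the corepressor Ncor1 (log2 difference 1.04, adjusted p = 0.0524).

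Of 4 tested genes of vitamin D metabolism and uptake 2 were called, both higher in SI. Cubn encodes cubilin, an endocytic receptor that takes up the vitamin D carrier protein in the kidney. It lay between 212.5 and 319.3 CPM in SI and between 1.74 and 3.64 CPM in COL, a log2 difference of 6.69 (SE 0.38, edgeR adjusted p = 4.5e-06). Cyp27a1, a mitochondrial enzyme that hydroxylates sterols and vitamin D, was at 73.98 ± 18.2 CPM in SI against 9.98 ± 4.51 CPM in COL (SD, n = 4 each), a log2 difference of 2.89 (SE 0.39, edgeR adjusted p = 0.000246). Cyp27b1, the enzyme that activates the hormone, had 5 counts over the SI libraries and 11 over the COL libraries, and did not pass the filter.

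Of the 10 tested calcium channels, buffers, pumps and exchangers that are reported here beside the members, 4 were called higher in COL. Atp2a3, a calcium pump of the endoplasmic reticulum, lay between 55.6 and 77.7 CPM in SI and between 560.6 and 682.6 CPM in COL, a log2 difference of -3.24 (SE 0.31). Trpm6, a magnesium and calcium channel of the luminal membrane, was at 1.35 ± 0.373 CPM in SI against 33.4 ± 13.7 CPM in COL, a log2 difference of -4.63 (SE 0.39). Slc8b1, the mitochondrial sodium-calcium exchanger, and Slc8a1, that of the plasma membrane, had log2 differences of -3.41 (SE 0.41) and -5.66 (SE 0.91), and Slc8a1 had only 7 counts over the 4 SI libraries. The edgeR adjusted p of the 4 genes lay between 1.59e-05 and 0.000775, and none of them overlapped between the tissues.

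The 3 claudins that let cations or calcium pass between cells went different ways. Cldn15 was at 909.5 ± 178.8 CPM in SI against 228.8 ± 92.8 CPM in COL (log2 difference 1.99, SE 0.41, edgeR adjusted p = 0.00367), while Cldn2 was at 35.8 ± 26.1 CPM in SI against 179.3 ± 71.4 CPM in COL (log2 difference -2.32, SE 0.63, edgeR adjusted p = 0.0174). Cldn12 was at 30.1 ± 7.12 CPM and 29.4 ± 9.80 CPM, with a log2 difference of 0.04 (SE 0.31) that was not called.

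Among 6 tested phosphate carriers and their scaffolds 2 were called higher in SI and 1 higher in COL. Pdzk1, a scaffold that holds carriers in the brush border, lay between 309.9 and 720.9 CPM in SI and at most at 1.11 CPM in COL (log2 difference 10.25, SE 1.14, edgeR adjusted p = 7.34e-05), and 38.0% of its 50-base stretches are shared with Gpr89, on the opposite strand. Slc9a3r1, a related scaffold, had a log2 difference of 3.53 (SE 0.56, edgeR adjusted p = 0.000739). Slc20a1, a phosphate carrier found in most cells, was the one higher in COL at -3.15 (SE 0.81, edgeR adjusted p = 0.0133), with 6.12 to 37.2 CPM in SI and 33.5 to 390.9 CPM in COL, so that the tissues overlapped, and 12.3% of its 50-base stretches are shared with other genes. The share of Slc34a2 in the CPM per kilobase of the 5 Slc34 and Slc20 carriers was 98.2, 90.1, 14.7 and 96.8% in SI1 to SI4 and 18.4, 4.23, 22.2 and 16.5% in COL1 to COL4, while that of Slc20a1 was 64.6% in SI3 and at most 4.14% in the other SI libraries. SI3 thus had a carrier profile closer to that of the COL libraries, in which Slc20a1 held 60.3 to 93.0%. Slc34a3, under the filter, had 93, 39, 1 and 107 counts in SI1 to SI4 and 0 in the 4 COL libraries, so that its mean of 2.88 CPM in SI was at least 27.6-fold higher than the mean limit of 0.104 CPM in COL.

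Of 3 other known targets of the receptor 1 was called. Cyp3a11, a drug and bile acid oxidising enzyme, lay between 496.7 and 4869 CPM in SI and at most at 3.87 CPM in COL (log2 difference 11.41, SE 1.76, edgeR adjusted p = 0.000629). Slc30a10, a manganese exporter, and Abcb1a, a drug exporter, had log2 differences of 0.73 (SE 0.38) and -0.51 (SE 0.55) and were not called.

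**Figure D3:**
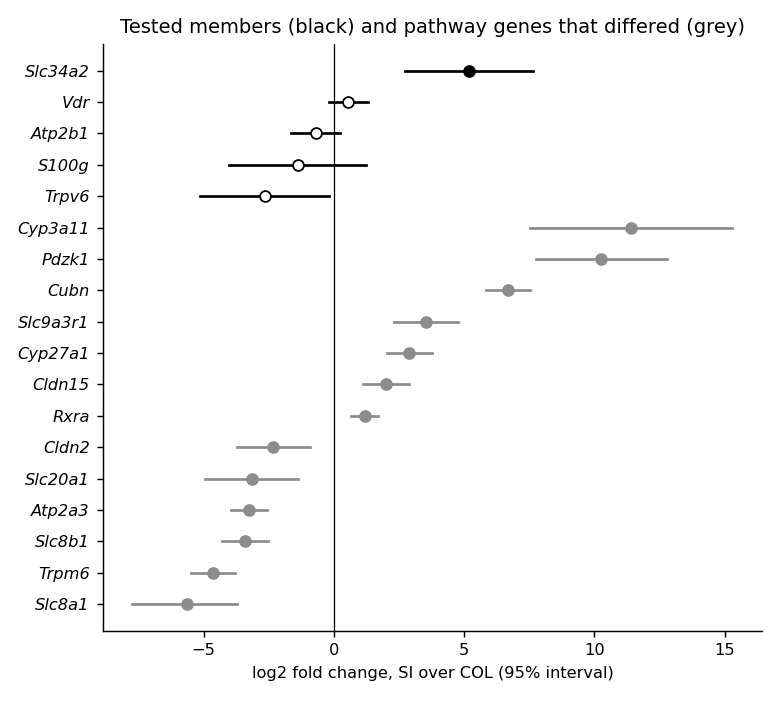
Fitted log2 fold change of SI over COL from edgeR with its 95% interval, for the 5 tested members (black) and the 13 pathway genes called (grey), filled where the adjusted p was below 0.05. The interval of Slc34a2, from 2.74 to 7.65, lies to the right of 0, and those of Vdr, Atp2b1 and S100g include 0.

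The genes whose log2 CPM over the 8 libraries ran most like that of a member were found among 7812 genes with a mean log2 CPM of at least 3. Vdr ran most like Slc5a6, Vstm5 and Ccdc97 (Pearson r = 0.969, 0.959 and 0.955). Trpv6 ran most like Pum3, Rasa4 and Ermp1 (r = 0.983, 0.975 and 0.964), S100g like Oxct1, Gm9843 and Mettl17 (r = 0.934, 0.923 and 0.914), and Atp2b1 like Tagap1, Greb1 and Oxct1 (r = 0.972, 0.961 and 0.959). Oxct1, an enzyme that breaks down ketone bodies, was thus named for both the buffer and the pump. Slc34a2 ran most like Fig4, Slc38a7 and Mob3b (r = 0.952, 0.948 and 0.945). These values describe 8 points from 4 mice and carry no test.

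The difference between SI and COL was also compared between the 2 female and the 2 male mice. No member passed the test of the interaction, whose adjusted p by edgeR lay between 0.909 and 0.984. Over all 14491 genes edgeR called 0, or 0.0%, with 761 at an unadjusted p below 0.05, and limma-voom called 0 with 806 at that level. The interaction term, the log2 difference of SI over COL in male mice minus that in female mice, was 4.45 for S100g (unadjusted p = 0.0185) and -3.96 for Slc34a2 (unadjusted p = 0.0287). For Trpv6 it was 6.79 (unadjusted p = 0.00962), a size that depends on the prior count because both female SI libraries were at 0. The within-mouse values of S100g were -5.33 and -4.49 in the female mice and -0.35 and -0.96 in the male mice. In SI each sex coincided with 1 level of the mitochondrial share, and the 2 cannot be told apart there.

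**Figure D4:**
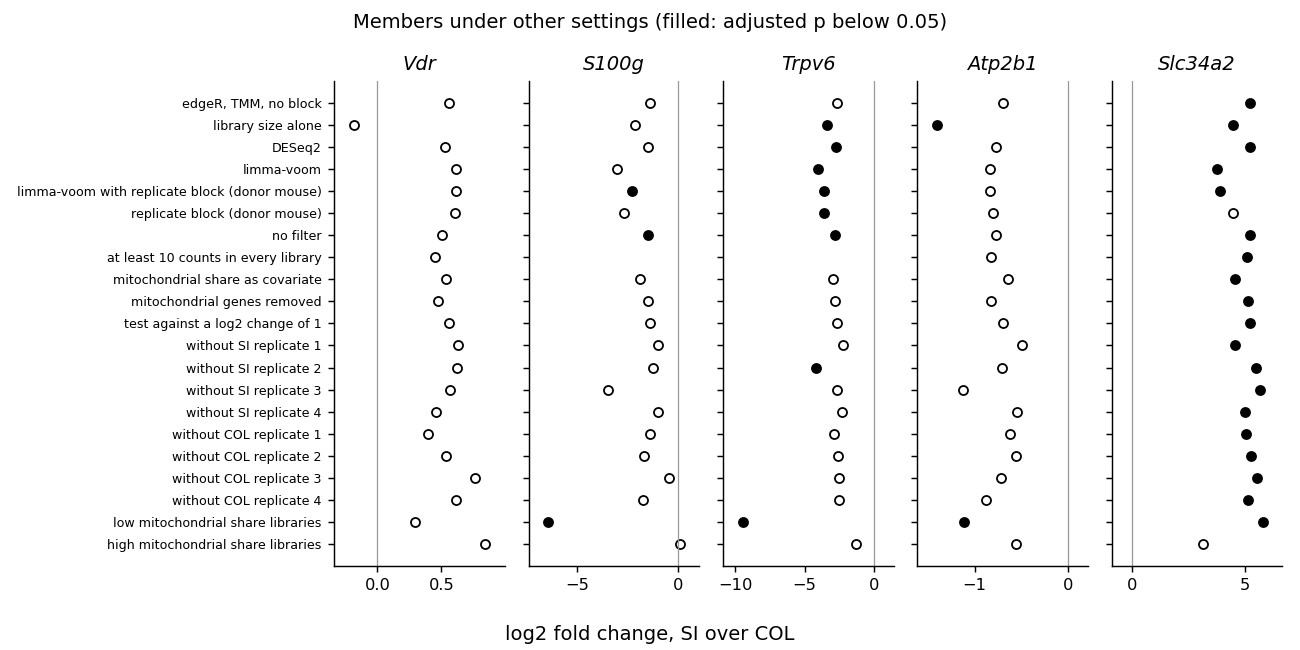
Fitted log2 fold change of SI over COL for the 5 tested members under each setting of the analysis, filled where the adjusted p was below 0.05. A gene without a value under the stricter filter has no point. Slc34a2 stays above 0 in every setting shown, and S100g spans -6.41 in the libraries of low to 0.07 in those of high mitochondrial share.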

How the data were processed

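Crypt RNA of 4 mice was measured by RNA-Seq in 8 libraries. According to the supplementary methods and the labels, paired-end reads were trimmed with Trimmomatic 0.36 and mapped to mm10, and the authors used STAR 2.5.2b to count them for each Ensembl gene and deposited these counts as whole numbers, without normalization. The submitters' processing notes also list the build mm9. Neither the annotation nor a strand setting of the counting is given in the sources used here.

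Symbols and coordinates came from GENCODE vM21 (GRCm38), which matched 45143 of 45706 identifiers, and promoters from RefSeq (GRCm38.p6), in which 5 of 6 members had an entry. Tissue, mouse and sex came from the labels. SI was tested against COL in R 4.3.3 with edgeR 4.0.16 (glmQLFit and glmQLFTest, TMM, Benjamini-Hochberg adjustment over all genes tested). The filter on low counts was filterByExpr by tissue. Kept genes had at least 15 counts in total and, in at least 4 libraries, the CPM of 10 counts at the median library size. The methods name limma without a donor term, so the main design has none, and edgeR was used in its place because the files hold counts. The same number in SI and COL stands for the same animal. Deviations from the tissue means correlated at -0.24, 0.393, -0.0786 and 0.327 in mice 1 to 4. Single genes were also compared by exact two-sided permutation of log2(CPM + 0.1). The fits were tested on simulated counts. Within a tissue, replicates differed by a chi-square per gene of at least 76.05, so no library was taken as a repeat of another.

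The members, the 6 pathway lists and the marker lists were chosen with earlier results of these data known, and 1 gene of the lists is not reported here. Named in the text are the members, the called genes of the pathway lists and, for each member, the 3 genes of most similar pattern. Other genes of those lists (Rxrb, Ncor1, Cyp27b1, Trpv5, Cldn12, Slc34a3, Slc30a10 and Abcb1a) were added after their values were seen. Calb1 and Calb2, also of those lists, are named beside S100g as the other calbindin genes. Alternatives were library-size scaling, DESeq2 1.42.0, limma 3.58.1 (voom) with and without a block, the block in edgeR, no filter, at least 10 counts in every library, the mitochondrial share as covariate, mitochondrial genes removed, each library left out, and a test of changes beyond 1 on the log2 scale. Fits on the libraries of low or high mitochondrial share were added after seeing the data.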

Additional observations from a re-analysis of the deposited data

Results flagged for a closer look

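The gap of a library to the nearest of the other 3 of its tissue was divided by the range of the 4. A library was set apart where this share exceeded the 95% critical value of Dixon's test. For normally distributed values chance gives this in about 1 of 20 groups, a rate that does not hold for counts near 0. With the other 3 libraries at 0, 1 count is enough, as for Cyp24a1 in SI. Of 38 groups looked at, 6 had a library set apart. Trpv6 was at 0.88 CPM in COL1 and at 2.55 to 2.79 CPM in the other COL libraries. Cyp24a1 was at 0.0604 CPM in SI2, from 1 count, and at 0 in the other SI libraries. Slc8a1 was at 0.302 CPM in SI2 and at most at 0.0507 CPM in the other SI libraries. In COL2, Trpm6 was at 53.8 CPM against 25.2 to 28.5 CPM in the other COL libraries, and Slc20a1 was at 391.0 CPM against 33.5 to 85.1 CPM. Cyp3a11 was at 3.87 CPM in COL4 and at most at 0.508 CPM in the other COL libraries. COL2 also had the highest mitochondrial share and the fewest counts of the 8 libraries, and the part of either in these values was not tested.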

How the results depend on the processing

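With the donor mouse as a replicate block, edgeR called 4072 genes and 14 of the pathway genes, gave 4.47 for Slc34a2 (adjusted p = 0.057, no longer called) and -3.63 for Trpv6 (adjusted p = 0.0424, now called), and changed no other call among the members. With the block in limma-voom, S100g was at -2.28 (adjusted p = 0.0373), Trpv6 at -3.61 (adjusted p = 0.0161) and Slc34a2 at 3.91 (adjusted p = 0.0152), all called. Without the block Trpv6 was called by limma-voom (-4.06) and by DESeq2 (-2.74) as well. Without a filter S100g (-1.51) and Trpv6 (-2.79) were called. Library size alone turned Vdr to -0.183 (adjusted p = 0.713) and called Trpv6 (-3.35) and Atp2b1 (-1.40), and it split the calls into 1115 genes higher in SI and 4788 higher in COL, against 2253 and 1863 with TMM. A test against a log2 change of 1 called 2072 genes. The mitochondrial share as covariate called 21 pathway genes in place of 13, and 5542 of all genes in place of 4116. In the 4 libraries of low mitochondrial share S100g (-6.41), Trpv6 (-9.45, a fitted size that depends on the prior count) and Atp2b1 (-1.11) were called. In the 4 of high share 2264 genes were called, Slc34a2 was at 3.16 (adjusted p = 0.121) and S100g at 0.0677 (adjusted p = 0.972). The cause of these differences was not tested.

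Over the fits that leave out 1 library, the log2 difference ranged from 0.39 to 0.77 for Vdr, from -3.44 (without SI3) to -0.45 (without COL3) for S100g, from -4.20 (without SI2, called) to -2.21 for Trpv6, from -1.12 to -0.49 for Atp2b1, from 4.53 to 5.63 for Slc34a2 and from -1.14 to -0.24 for Cyp24a1. The genes called ranged from 3167 to 4480 and the pathway genes from 13 to 19. A minimum of 10 counts in every library left S100g and Trpv6 without a value, and also Cyp3a11, Pdzk1 and Slc8a1. Trpv6 and Slc8a1 passed the main filter through COL, and Cyp3a11 and Pdzk1 through SI. In each case this is the tissue of the higher level. Cyp24a1 was under the filter and has values with library size alone, with a library left out and in the libraries of low or high share; the other alternatives were not run for it. Of the 13 pathway genes called, library size alone lost Cldn15 and Rxra, the test against a log2 change of 1 lost Cldn2 and Rxra, the minimum of 10 counts in every library lost Cyp3a11, Pdzk1 and Slc8a1, and the libraries of high share lost Cldn2, Rxra and Slc20a1. Rxrb was gained under DESeq2, library size alone, the covariate, the removal of mitochondrial genes, the minimum of 10 counts and without COL3. Direction and side of the threshold held under 19 of 20 alternatives for Vdr, 15 of 19 for S100g, 11 of 19 for Trpv6, and 18 of 20 each for Atp2b1 and Slc34a2. Cyp24a1 was negative under all 11 alternatives run, of which the permutation tests on 2 against 2 libraries could not pass the threshold. The counts behind Trpv6 and Cyp24a1 are few, at most 133 and 19 in a library.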

Other observations

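Beside the villus, proximal SI, ileum and stem cell markers given above, other cell types showed the following summed levels. Surface colonocyte markers (Car1, Car4, Aqp8, Slc26a3 and Krt20) lay between 5090 and 11400 CPM in SI and between 5220 and 33400 CPM in COL, and Krt20 made up most of the sum in SI, at 4780 to 11100 CPM. Goblet cell markers (Muc2, Tff3 and Clca1) lay between 923 and 3230 CPM in SI and between 9140 and 17300 CPM in COL. Muc2 made up most of the sum in COL, at 7720 to 16200 CPM against 379 to 988 CPM in SI. The tissues overlapped for Tff3 (248 to 1120 CPM in SI, 266 to 551 CPM in COL). They also overlapped for Clca1 (284 to 1120 CPM in SI, 801 to 1510 CPM in COL). Paneth cell markers (Lyz1, Ang4 and Mmp7) lay between 71.6 CPM, in SI1, and 789 CPM in SI, and between 13.2 and 72.2 CPM in COL. Ang4 made up most of the sum in COL, at 10.6 to 68.9 CPM, and overlapped with its 6.93 to 48.2 CPM in SI. Lyz1 lay between 61.3 and 700 CPM in SI and at most at 3.08 CPM in COL. Mmp7 lay between 3.35 and 41.2 CPM in SI and at most at 3.1 CPM in COL. The general epithelial genes Epcam, Cdh1, Vil1 and Krt8 summed to 6160 to 11400 CPM in SI and 2780 to 7100 CPM in COL.

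Of cells from outside the epithelium, leukocyte markers (Ptprc, Cd3e, Cd79a and Lyz2) summed to 22.9 to 55.9 CPM in SI and 10.5 to 28.7 CPM in COL. Fibroblast and muscle markers lay between 3.43 and 13.2 CPM in SI and between 4.75 and 10.6 CPM in COL. Endothelial markers reached at most 1.03 CPM in SI and 5.41 CPM in COL. Globin genes reached at most 0.558 CPM in SI and 32.0 CPM in COL.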
